A study of Homo sapiens with 7 samples.

Results

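DRAM1 and TXNRD1 are genes on chromosome 12, and their VDR peaks are described here. The peaks are those of the 6 VDR lists that overlapped either gene body or the 100 kb on either side of it, in hg19 coordinates: DRAM1 at chr12:102271129-102317401 and TXNRD1 at chr12:104609557-104744085. The rule found 12 peaks around DRAM1 and 6 around TXNRD1, 18 of the 35564 peaks in the part of the genome that all 6 lists cover. The genes were chosen by their peaks in these same lists, with the fold enrichments and the presence or absence of peaks after each treatment known. Those values are therefore given as a description, with no test.

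The libraries were ChIPmentation libraries from THP-1, a human cell line derived from an acute monocytic leukaemia. In ChIPmentation the sequencing adapters are inserted by a transposase while the chromatin is still held by the antibody. Cells received 100 nM 1,25(OH)2D3, the hormonal form of vitamin D and called 1,25D here, or the solvent, 0.1% ethanol (EtOH), for 8 h, and DNA was recovered with an antibody against the vitamin D receptor (VDR). Each treatment had 3 libraries, and all came from the same cell line with no genetic change named in the labels. Nothing in the labels says that replicates were grown as separate cultures.

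VDR is a nuclear receptor that binds DNA together with the retinoid X receptor, typically at a direct repeat of 2 hexamers separated by 3 bases, called a DR3 element. Its hormone changes the shape of the receptor and the cofactors it recruits, and monocytes and macrophages are among the cells in which this signalling is best known. DRAM1 encodes a membrane protein of the lysosome that takes part in autophagy, the pathway by which cells digest their own components, and it is known as a target of the tumour suppressor p53. TXNRD1 encodes the cytosolic thioredoxin reductase, a selenoprotein that uses NADPH to keep thioredoxin reduced. It is known as a target of NRF2, a transcription factor of the oxidative stress response that binds antioxidant response elements (AREs).

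The annotated starts of both genes are shown first. Distances of the peaks are taken from the hg19 coordinates of the genes. DRAM1 is 46033 bp long by RefSeq and 46273 bp in those coordinates, so its printed start may differ from the one used for distances. RefSeq's promoter table, which is of build GRCh38.p14 and not of the hg19 used by the peak lists, held 1 promoter for DRAM1 (gene ID 55332) and 2 for TXNRD1 (gene ID 7296), all on the plus strand. Each sequence runs 5′ to 3′ from 250 bases before the transcript start to 50 bases after it. Capitals mark the letters of a VDR half-site (AGGTCA or AGTTCA or GGGTCA or GGTTCA) or of an ARE core (TGACNNNGC), searched on both strands.
DRAM1 promoter, chr12:101877330-101877629: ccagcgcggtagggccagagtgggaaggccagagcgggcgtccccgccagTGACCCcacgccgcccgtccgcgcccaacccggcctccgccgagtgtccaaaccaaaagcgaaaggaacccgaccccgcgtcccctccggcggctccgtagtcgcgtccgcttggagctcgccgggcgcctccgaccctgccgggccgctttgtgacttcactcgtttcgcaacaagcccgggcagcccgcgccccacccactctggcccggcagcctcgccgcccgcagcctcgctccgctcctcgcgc
TXNRD1 outer promoter, chr12:104215529-104215828: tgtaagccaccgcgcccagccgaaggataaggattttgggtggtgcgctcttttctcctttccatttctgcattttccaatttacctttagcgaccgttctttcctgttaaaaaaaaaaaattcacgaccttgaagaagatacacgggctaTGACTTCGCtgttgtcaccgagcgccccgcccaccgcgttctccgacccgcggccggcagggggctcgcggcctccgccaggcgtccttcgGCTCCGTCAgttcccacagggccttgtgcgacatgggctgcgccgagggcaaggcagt
TXNRD1 inner promoter, chr12:104286782-104287081: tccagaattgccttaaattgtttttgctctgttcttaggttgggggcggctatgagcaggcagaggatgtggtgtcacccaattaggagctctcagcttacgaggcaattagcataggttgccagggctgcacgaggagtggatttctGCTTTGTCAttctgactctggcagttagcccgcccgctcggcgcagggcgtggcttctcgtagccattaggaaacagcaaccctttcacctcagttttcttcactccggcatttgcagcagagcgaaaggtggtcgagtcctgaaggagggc

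The DRAM1 promoter held 1 VDR half-site, GGGTCA on the minus strand, and no ARE core. Neither TXNRD1 promoter held a half-site. The outer TXNRD1 promoter held 2 ARE cores, TGACTTCGC on the plus strand and TGACGGAGC on the minus strand, and the inner one held 1, TGACAAAGC on the minus strand. Over the 35116 promoters of the table, all of the same length, 38.6% had a half-site and 13.3% had an ARE core on either strand. A DR3 element, 2 of these half-sites 3 bases apart, was in none of the 3 promoters and in 0.0740% of all promoters. The DRAM1 promoter was 74.3% G and C and the TXNRD1 promoters 58.0% (outer) and 53.7% (inner), against a median of 58.7% over the table. These matches describe the letters of the windows and not VDR binding.

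Peaks of different lists that shared at least 1 bp were merged into sites. VDR was enriched at 2 sites close together upstream of DRAM1 and at 1 site inside TXNRD1 in every 1,25D library. The authors' fold enrichment, which relates each peak to a background estimated by their peak caller, averaged 17.8 ± 1.60 at the leading DRAM1 site, 6.69 ± 0.358 at the second DRAM1 site and 9.95 ± 1.04 at the TXNRD1 site (mean ± SD over the 1,25D lists, n = 3 each). No EtOH list had a peak at the leading site of either gene, and 1 EtOH list had a weak one at the second DRAM1 site. Of the 28993 sites in the part of the genome covered by all 6 lists, 1.70% were in all 3 1,25D lists with no EtOH peak, as both leading sites were. A further 0.852% were in all 3 1,25D lists and exactly 1 EtOH list, as the second DRAM1 site was. The choice of the genes used this contrast, so nothing is read from these shares. A site missing from a list did not reach the caller's threshold there, and the sequencing depth behind the lists is unknown.

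The leading DRAM1 site lay at chr12:102248448-102249021, with its nearer edge 22.1 kb upstream of the gene body. Its fold was 19.7 in 1,25D replicate 1, 17.1 in replicate 2 and 16.7 in replicate 3, with the authors' p-values of 7.81e-45, 4.01e-36 and 1.96e-34. All 3 EtOH lists were without a peak there, so no EtOH fold can be set beside these values. Within its own list the peak ranked 57 of 5203 by fold in 1,25D replicate 1, 62 of 3647 in replicate 2 and 82 of 4424 in replicate 3, which is within the top 1.85% of each list. By mean fold it was the highest of the 492 sites found in every 1,25D list without an EtOH peak, within the part covered by all 6 lists. It ranked 65 of 1217 among all sites found in the 3 1,25D lists, whatever the EtOH lists held.

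The second DRAM1 site lay at chr12:102250663-102251294, on the side nearer the gene and 1.64 kb from the leading site. Its fold was 6.61, 7.08 and 6.38 in 1,25D replicates 1 to 3. EtOH replicate 3 listed a peak of fold 2.91 (the authors' p-value 0.00366), which ranked 3977 of 5722 in its list, and EtOH replicates 1 and 2 listed none. The weakest 1,25D peak ranked 573 of 4424 in its own list. Without EtOH replicate 3, this site too was in every 1,25D list without an EtOH peak, and the DRAM1 window held 2 such sites in place of 1.

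The pair was unequal in the same order in every 1,25D library. The fold of the leading site was 2.97, 2.41 and 2.62 times that of the second site in replicates 1 to 3. Such close neighbours were uncommon: 83 of the 1217 sites in all 1,25D lists (6.82%) had another of them at this gap or less, and so did 39 of the 492 sites with no EtOH peak (7.93%). Beyond the pair, the nearest site in all 1,25D lists was 1853 kb away on the upstream side and 647 kb away on the downstream side. In RefSeq's gene order the protein-coding neighbour of DRAM1 on the upstream side, the side of the pair, is GNPTAB. It encodes subunits of the enzyme that begins tagging lysosomal hydrolases. The position of the sites relative to GNPTAB was not analysed here.

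The start of DRAM1 had no peak in any of the 6 lists, and the peak nearest to it ended 19.8 kb upstream, in the second site. The only peak inside the gene body was at chr12:102294669-102294840 in EtOH replicate 1, with a fold of 4.17, and was in no other list. The remaining 4 sites of the DRAM1 window were also each in a single list. They were a peak of fold 3.09 in 1,25D replicate 3, 26.7 kb upstream, a peak of 3.01 in EtOH replicate 3, 84.2 kb upstream, and peaks of 3.21 and 3.46 in EtOH replicate 2, 9.12 and 94.5 kb downstream.

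**Figure D1:**
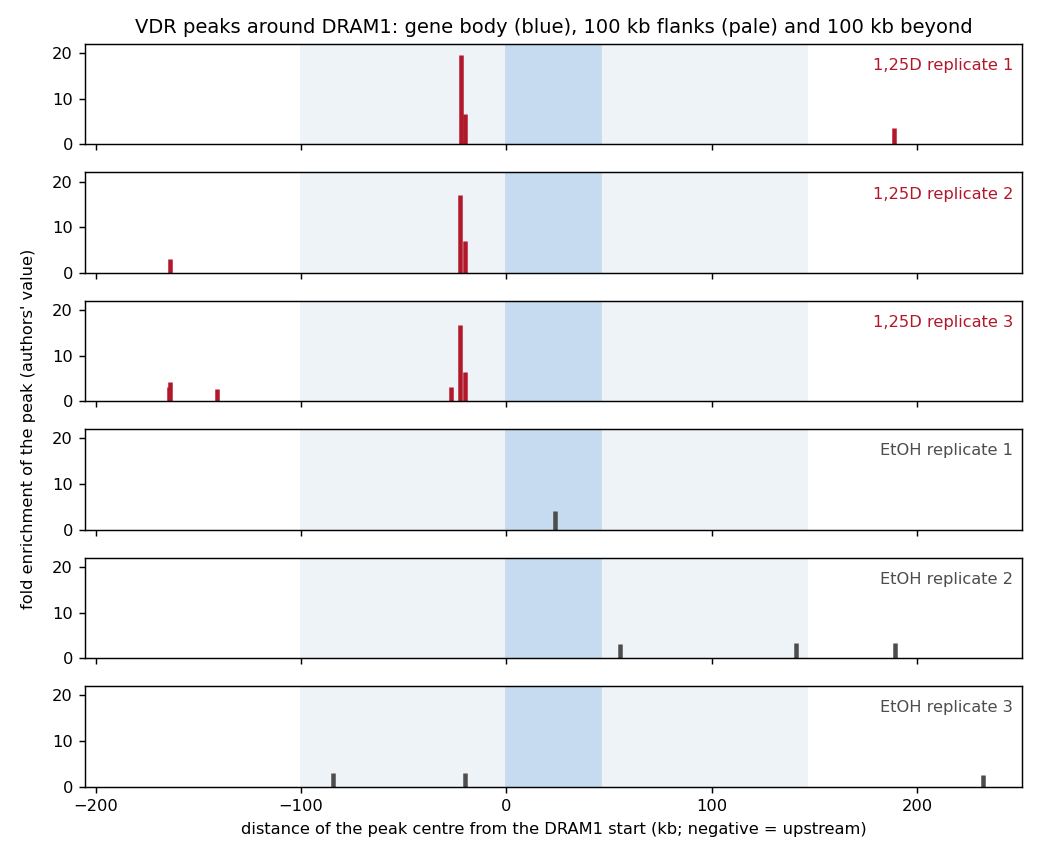
Authors' fold enrichment (vertical axis) of every peak against the distance of its centre from the DRAM1 start in kb (horizontal axis), 1 panel per list, red for 1,25D and grey for EtOH. The tall and the middling bar just upstream of the gene, present in all 3 1,25D panels, are the leading site (folds 16.7 to 19.7) and the second site (6.38 to 7.08), and no EtOH bar in the panels exceeds 4.17.

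The TXNRD1 site lay inside the gene at chr12:104680486-104681357. Its fold was 9.55 in 1,25D replicate 1, 11.1 in replicate 2 and 9.16 in replicate 3, with the authors' p-values of 7.52e-18, 3.42e-22 and 6.06e-17, and all 3 EtOH lists were without a peak there. The peak ranked 227 of 5203, 172 of 3647 and 295 of 4424 in these lists. By mean fold it was the 15th highest of the 492 sites without an EtOH peak and the 4th of the 69 such sites on chromosome 12. This site, like the leading DRAM1 site, had no EtOH fold to compare. In each library it was weaker than the leading DRAM1 site, whose fold was 2.06, 1.53 and 1.83 times as high, and stronger than the second DRAM1 site, at 1.44, 1.57 and 1.44 times the fold of that site.

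The TXNRD1 site stood at the distance from the gene start at which RefSeq places the inner promoter. In GRCh38.p14 the inner transcript starts 71253 bp after the gene start, and in hg19 the 1,25D peaks ran from 70938 to 71524 bp, from 70929 to 71800 bp and from 70939 to 71596 bp after the gene start in replicates 1 to 3. The gene is 134529 bp long in both builds. Taking distances within the gene as equal in the 2 builds, which was not tested further, each peak covered all 300 bases of the inner promoter printed above, and the peak centres lay -22, 111 and 14 bp from the inner transcript start. The promoter table had no other start inside the gene. RefSeq also places 3 genes within TXNRD1, whose starts that table lacks, so it need not list every start there. By the same distances none of these genes overlapped the site. The antisense RNA TXNRD1-AS1 was 5.87 kb from it, EID3 16.2 kb and the pseudogene RPL18AP3 20.8 kb. The outer start had no peak in any list, and the peak nearest to it was 51.2 kb away, in EtOH replicate 2.

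The other 3 sites of the TXNRD1 window were peaks of EtOH replicate 2 alone. Their folds were 2.77 at 51.2 kb upstream, 2.30 inside the gene at chr12:104730934-104731123, and 3.21 at 60.1 kb downstream. EtOH replicates 1 and 3 listed no peak at all in the window, and without EtOH replicate 2 the TXNRD1 site was the only site left in it. This library had the longest list of the 6, with 11317 peaks in the part covered by all, against 3647 to 5722 in the others. The nearest other sites in all 1,25D lists were 458 kb before and 412 kb after the TXNRD1 site, and both were also in all 3 EtOH lists, with mean 1,25D folds of 17.7 and 9.35.

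**Figure D2:**
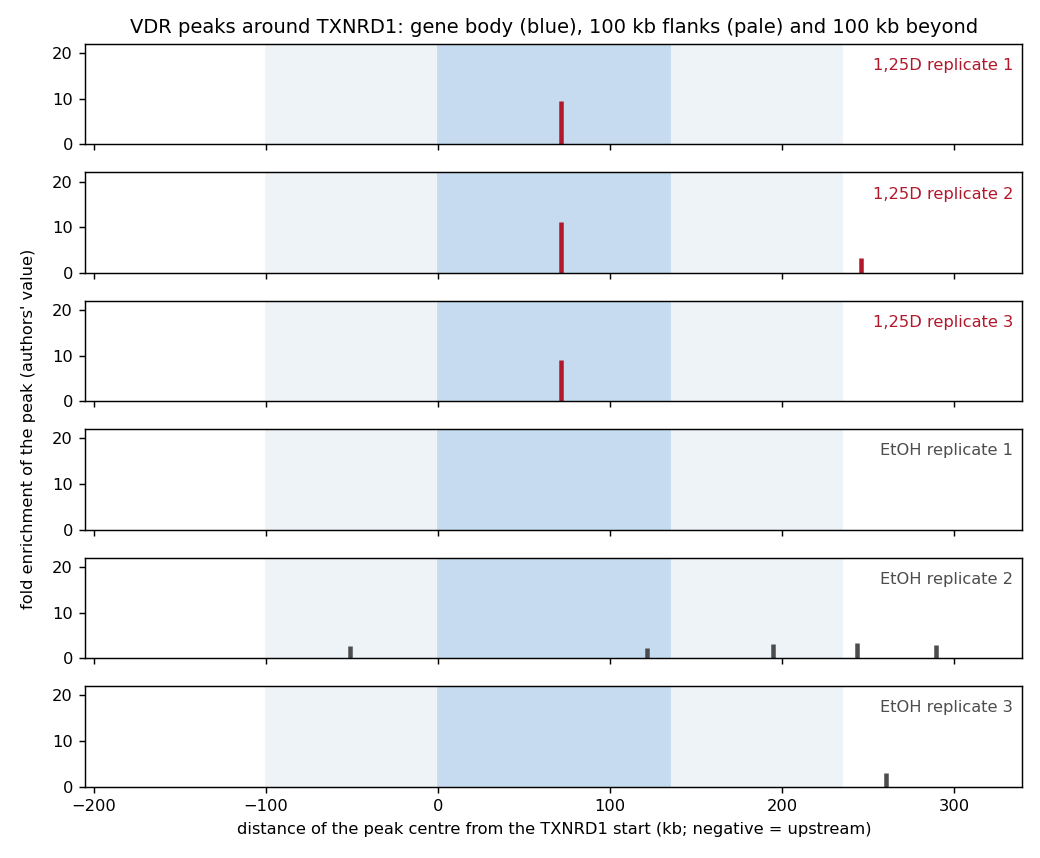
Authors' fold enrichment (vertical axis) of every peak against the distance of its centre from the TXNRD1 start in kb (horizontal axis), 1 panel per list, on the same scale as the map of DRAM1. The bar inside the gene, at a fold of 9.16 to 11.1 in the 1,25D panels, has no counterpart in the EtOH panels, where EtOH replicate 2 shows 3 small bars within the window.

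The 1,25D libraries placed the peaks at closely matching positions. The stretch common to the 3 peaks was 440 bp at the leading DRAM1 site (chr12:102248547-102248987), 389 bp at the second (chr12:102250811-102251200) and 585 bp at the TXNRD1 site (chr12:104680496-104681081). Peak centres differed by at most 65, 53 and 133 bp between libraries. At the TXNRD1 site the starts agreed within 10 bp and the ends within 276 bp, because the peak of 1,25D replicate 2 reached further downstream. These peaks were 389 to 871 bp long, against median peak lengths of 162 to 216 bp in the 1,25D lists. Those medians are over all peaks, whose median folds were only 3.45 to 3.71, and lengths at matched fold were not compared. The EtOH peak at the second DRAM1 site was 144 bp long, the shortest length in its list.

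**Figure D3:**
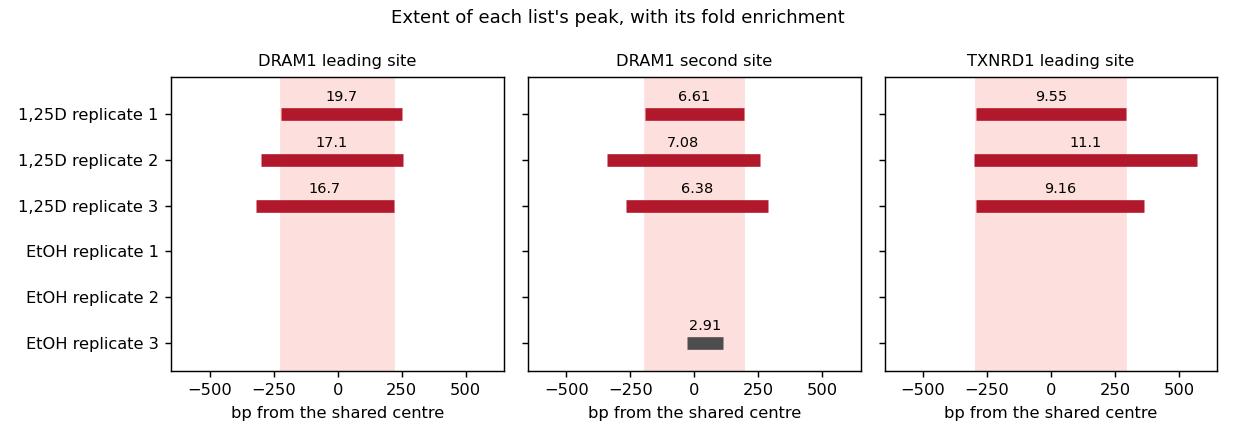
Extent of the peak of each list at the 3 sites found in every 1,25D list, in bp from the centre of the stretch that the 1,25D peaks share (pale band), with the authors' fold enrichment above each bar. The 1,25D bars (red) cover the shared stretches of 440, 389 and 585 bp, and the only EtOH bar (grey) is the 144 bp peak of EtOH replicate 3 at the second DRAM1 site.

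The 8 single-list sites differed from these 3 in length and strength. Their peaks were 144 to 189 bp long with folds of 2.30 to 4.17, and 7 of the 8 came from EtOH lists, which gave 72.9% of the 26034 single-list sites overall. Single-list sites made up 89.8% of all sites, and 8 of the 11 sites in the 2 windows were of this kind. Several carried values that recur in their list: the pair of fold and p-value of the DRAM1 peak 84.2 kb upstream was shared by 1404 of the 5722 peaks of EtOH replicate 3, itself included, and that of the peak inside DRAM1 by 614 of the 5251 peaks of EtOH replicate 1. The leading DRAM1 peak had a pair of values found 1 to 3 times in its lists, the second DRAM1 peak one found 35, 4 and 7 times in 1,25D replicates 1 to 3, and the TXNRD1 peak one found 2 to 5 times. The ranges were not separate, since the values of the single-list peak 60.1 kb downstream of TXNRD1 were shared by 27 peaks of EtOH replicate 2.

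Site numbers in the windows were set beside the mean of chromosome 12, which held 3320 sites. The DRAM1 window of 246 kb had 7 sites, where the chromosome's mean density gives 6.13. The TXNRD1 window of 335 kb had 4, where it gives 8.33. Sites in all 1,25D lists numbered 2 and 1, where 0.308 and 0.419 are given by the mean density of the 167 such sites on the chromosome. No site of either window was in all 6 lists, a class that held only 298 of the 28993 sites in the part covered by all lists. The windows were chosen for their sites, so these numbers carry no test.

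The absence from the EtOH lists was then described at matched strength. Among the sites in all 1,25D lists, 55 others had a mean 1,25D fold within 1.2 times that of the leading DRAM1 site (14.8 to 21.4). Of these, 43 were in all 3 EtOH lists, 5 in 2 and 7 in 1, and 0 were missing from every EtOH list. The leading DRAM1 site has the highest fold of the sites without an EtOH peak, so only weaker sites could have been missing from every list. The site at chr11:33915105-33915901, with a mean fold of 14.2 just under this range, was in no EtOH list. For the TXNRD1 site, 29 of 163 others at a fold of 8.29 to 11.9 (17.8%) were missing from every EtOH list and 72 were in all 3. For the second DRAM1 site, 67 of 295 others at 5.58 to 8.03 (22.7%) were in exactly 1 EtOH list, as it was, and 118 were in none. The EtOH lists held peaks as low as a fold of 1.40 to 1.72, and 46, 53 and 48 of their peaks had a fold of 9 or more in EtOH replicates 1 to 3. The genes were chosen with the absence of EtOH peaks at both leading sites known, so the contrast of these sites with their equals in fold is a description.

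**Figure D4:**
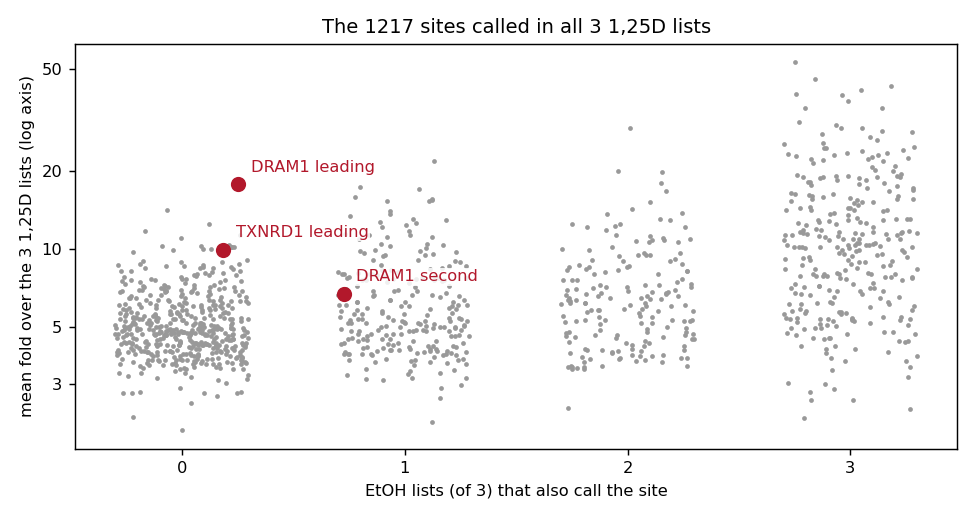
Mean fold enrichment over the 1,25D lists (vertical log axis) of the 1217 sites found in all 3 of them, by the number of EtOH lists that also hold the site (horizontal axis, points spread sideways at random for legibility). The leading DRAM1 site, at 17.8, is the highest point of the column of 492 sites in no EtOH list, and the TXNRD1 site, at 9.95, is 15th in it.

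The sites with a pattern most like each leading site over the 6 lists were found by the Euclidean distance between within-list percentiles of fold, an absent peak counted as 0. For DRAM1 they were, in order, chr11:33915105-33915901 (distance 2.10 percentile points), chr1:233462998-233463591, chr1:234658170-234658782, chr12:96447905-96448411 and chr12:4322431-4323049 (5.54), with mean 1,25D folds of 14.2, 11.8, 12.5, 11.0 and 11.4. For TXNRD1 they were chr16:31264953-31265404 (1.08), chr1:154453372-154453923, chr15:76357336-76358131, chr14:92852954-92853372 and chr11:98705796-98706423 (2.61), with folds of 10.3, 10.3, 10.3, 10.2 and 10.2. None of these 10 sites was in an EtOH list. This follows largely from the measure, since both leading sites counted as 0 in every EtOH list, so it is not a separate result. The leading sites of DRAM1 and TXNRD1 were 6.71 percentile points apart.

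Just beyond the windows, up to 100 kb further out, the peaks were weak. Outside the DRAM1 window there were 7 peaks, 5 in 1,25D lists and 2 in EtOH lists, with folds of 2.66 to 4.17. The nearest was 141 kb from the gene, while the outermost peak inside the window was at 94.5 kb. Peaks of 1,25D replicates 2 and 3, 164 kb upstream and with folds of 3.03 and 4.17, lay 132 bp apart without sharing a base. Outside the TXNRD1 window there were 4 peaks, 1 in a 1,25D list and 3 in EtOH lists, with folds of 2.91 to 3.46, the nearest 109 kb from the gene. None of these 11 peaks shared a base with a peak of another list.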

How the data were processed

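VDR ChIPmentation peak lists of 6 THP-1 libraries, 3 per treatment, were used; the input was not analysed here. Bowtie 1.1, MACS2 and hg19 (GRCh37) are named in the submitters' processing notes; the sources used here do not give settings, the MACS2 version, the peak threshold or the handling of the input and of duplicates. Each list holds, per the file headers, the authors' fold enrichment (a ratio) and p-value of each peak, called per library. Highest p-values were 0.00431 to 0.00433 in both replicates 1 and 0.00978 to 0.00997 in the others. Starts may be off by 1 bp, since the counting base is not stated. As used here, 3 lists ended in mid-line, so ranks and counts cover only the part that all lists share. This part runs to chromosome 16, position 50293713, in the lists' own order of chromosomes, which need not be numeric. Chromosome 12 lies within it. The part held 5203 of the 15262 peaks of 1,25D replicate 1. It held 5251 of 15974 for EtOH replicate 1 and 11317 of 33820 for EtOH replicate 2.

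Peaks were merged into sites at 1 bp of overlap, and a list's highest fold at a site was used (Python 3.11.15, pandas 2.3.3); the merging was tested on simulated lists. Sites in 2 or more lists, or with a fold of 5 or more, were described singly, and the leading site is that with the highest mean 1,25D fold. Members, rules and lists were chosen with earlier results of these data known, and no test was run. Sequences and gene order come from RefSeq tables of GRCh38.p14, and coordinates were not converted. The planned list of other autophagy and thioredoxin genes was not used, for want of hg19 positions.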

Additional observations from a re-analysis of the deposited data

How the results depend on the processing

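The leading sites of both genes stayed in every 1,25D list without an EtOH peak at a 50% overlap of the shorter peak and with peaks extended by 250 bp. The same held with 1 highest p of 0.00431 for all lists, and among peaks with a p of 1e-05 or less or a fold of 5 or more. It also held with windows of 50 or 200 kb. The stricter overlap, p and fold settings can only take EtOH peaks away, and the window width does not change a site's lists. Of these settings, only the extension could have added an EtOH peak to a leading site. The mean fold of the leading site was 16.9 to 18.4 for DRAM1 and 9.36 to 10.3 for TXNRD1 when 1 library was left out. It was 19.7 for DRAM1 in replicate 1 alone and 11.1 for TXNRD1 in replicate 2 alone.

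The number of sites moved with the threshold and the window. The DRAM1 window held 2 sites at a fold of 5 or more, 3 at a p of 1e-05 or less, 14 with 200 kb on each side, and 3, 4 and 4 with the lists of replicate numbers 1, 2 and 3 alone. It held 5 to 7 with 1 library left out. The TXNRD1 window held 1 site at either threshold, 2 with 50 kb and 8 with 200 kb on each side, 1 with replicate number 1 or 3 alone, and 1 to 4 with 1 library left out. Sites in every 1,25D list without an EtOH peak in the DRAM1 window numbered 2 at either threshold and with the lists of any 1 replicate number, and 1 to 2 with 1 library left out. Within replicate number 3 the second DRAM1 site was in both lists, which made 1 site common to both. The 2 sites counted there without an EtOH peak were the leading site and the weak peak of fold 3.09, 26.7 kb upstream. The share of all sites of this kind was 22.1% at a fold of 5 or more, 6.69% at a p of 1e-05 or less, 4.54% in replicates 2 and 3 alone, 47.1%, 20.6% and 39.4% within replicate numbers 1, 2 and 3, and 2.09% to 3.56% with 1 library left out, where fewer lists have to agree. The values within replicate numbers are a description of pairs that share a number in the labels, with no test. Depth is unknown, which limits what a missing peak can show.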
